A study of Mus musculus with 10 samples.

Results

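The genes described here encode the kinases that act on RNA polymerase II during elongation, their cyclins and the proteins that hold one of them inactive. They are Cdk9 with its cyclins Ccnt1 and Ccnt2, the inhibitors Hexim1 and Larp7, Cdk12 and Cdk13 with their cyclin Ccnk, and Cdk11b. The 9 genes were chosen by name for their roles, with earlier results of these data known. All 9 were found among 55573 genes of the count table. RNA was measured by sequencing of polyA RNA from cortical projection neurons of mouse pups on postnatal day 3, sorted for the reporter EYFP. The 5 Cdk7_KO libraries came from NexCre/+;Cdk7lox/lox;R26EYFP/+ pups and the 5 Ctrl libraries from NexCre/+;Cdk7+/+;R26EYFP/+ pups, with 1 preparation of sorted cells per mouse. All pups carried the NexCre driver and the EYFP reporter, so what either does by itself is shared by both groups. NexCre is a Cre recombinase placed in the Neurod6 gene, which is active in newly formed excitatory neurons of the cortex and hippocampus, so other cells of the cortex are expected to keep Cdk7. The question for these genes is whether neurons that lose Cdk7 carry different amounts of the RNAs for the other kinases of the transcription cycle.

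After initiation, RNA polymerase II often pauses close to the start of a gene. P-TEFb, which is CDK9 bound to cyclin T1 or T2, phosphorylates the pausing factors and the C-terminal domain of the polymerase and so allows elongation. Part of the P-TEFb of a cell is held inactive on the 7SK small nuclear RNA, where HEXIM1 inhibits the kinase and LARP7 stabilises the RNA. CDK12 and CDK13, both bound to cyclin K, phosphorylate the same domain further along the gene and are known for keeping long genes fully transcribed. CDK11, encoded in the mouse by Cdk11b, binds L-type cyclins and is linked to splicing and RNA 3′ end formation. CDK7, the kinase of TFIIH, phosphorylates the activation loop of other cyclin-dependent kinases, CDK9 among them. Counts of RNA do not show that phosphorylation or the activity of any kinase.

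The promoters of the 9 genes were compared because they are a property that the choice of genes did not use. RefSeq windows (GRCm38.p6) of 300 bases, from 250 before to 50 after the start, were found for all 9. Their GC content lay between 58.7% and 78.3%, beside a median of 52.7% over 32851 windows in the table. They held between 21 and 52 CG pairs, beside a median of 7. On either strand, the GC box GGGCGG was found in 9 of 9 windows and in 35.7% of all windows. The letters CCGGAAG of ETS factors were found in 4 (Cdk9, Ccnt1, Cdk13 and Cdk11b) and in 8.9% of all windows. CCAAT was found in 5 (Cdk9, Ccnt2, Hexim1, Larp7 and Ccnk) and in 37.4% of all, the NRF1 motif in 1 (Ccnt2) and in 4.6% of all, and TATAAA in 0 and in 13.6% of all. The windows were thus rich in CG pairs and had no match to TATAAA. The 32851 windows were taken whatever the expression of their genes. Whether the 9 differ from other expressed genes was not tested. A match describes letters only and is not evidence of binding. Much of the sequence compared is itself annotated as exon. In Cdk9, Ccnt1, Cdk12 and Ccnk all 120 bases before the start lie in annotated exons, in Hexim1 94, in Ccnt2 49 and in Cdk11b 22. In Larp7 and Cdk13 the 120 bases before the start overlap no annotated exon, and both stretches are printed here 5′ to 3′. Capitals mark GC boxes, CCAAT (Larp7) and the ETS letters (Cdk13), on either strand. The first lies at chr3:127553350-127553469 and the second at chr13:17805098-17805217, both on the minus strand.
Larp7: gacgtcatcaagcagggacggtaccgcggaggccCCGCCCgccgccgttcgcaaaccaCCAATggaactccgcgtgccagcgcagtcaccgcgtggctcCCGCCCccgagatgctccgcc
Cdk13: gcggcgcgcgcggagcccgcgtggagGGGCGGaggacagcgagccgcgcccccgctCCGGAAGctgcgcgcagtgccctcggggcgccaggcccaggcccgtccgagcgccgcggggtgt

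Libraries held from 23497621 to 31233466 counts in all, and the 9 genes had between 836 and 2517 counts in each library. Cdk7, the deleted gene, was at 13.2, 10.1, 17.4, 20.3 and 17.2 CPM (counts scaled so that every library has the same total) in Ctrl replicates 1, 3, 4, 5 and 6. In Cdk7_KO replicates 1 to 5 it was at 7.07, 3.63, 4.38, 5.13 and 5.6 CPM. The groups did not overlap (two-sided exact permutation p = 0.0079, the smallest that 5 libraries against 5 allow), and 33.0% of the Ctrl mean was left. The counts are for the whole gene and do not separate the deleted exons from the others. The log2 fold change of Cdk7 was -1.54 (SE 0.22), with an adjusted p of 0.161 in edgeR's quasi-likelihood test, 2.26e-08 with DESeq2 and a range from 2.26e-08 to 0.323 over 21 alternatives. All 10 listed markers of projection neurons were detected and had positive log2 fold changes (median 0.27, 3 with an unadjusted p under 0.05 in edgeR), and their sum lay between 1617 and 2397 CPM in Ctrl and between 1910 and 2541 CPM in Cdk7_KO. Markers of other cells were lower in Cdk7_KO, with 45 of 45 tested genes of 8 lists negative (48 were listed). Those of radial glia and astrocytes summed to between 684 and 1295 CPM in Ctrl and between 157 and 742 CPM in Cdk7_KO. The other 7 lists were proliferation, interneurons, oligodendrocyte lineage, microglia, vessel cells, erythroid cells and fibroblasts. The fibroblast markers Dcn and Lum were each at 0 in at least 1 library. An unadjusted p under 0.05 (edgeR) was found for 9 of 9 markers of radial glia and astrocytes but 0 of 7 of interneurons. The interneuron sums overlapped, at 62.1 to 315 CPM in Ctrl and 20.1 to 225 CPM in Cdk7_KO. Libraries numbered 1 to 3 (2 Ctrl, 3 Cdk7_KO) had Ddx3y of at least 45.3 CPM and those numbered 4 to 6 (3 Ctrl, 2 Cdk7_KO) at most 0.283 CPM, with Xist the other way round. The numbers thus go with the sex of the pups, and changes within each set are given beside the main values.

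Levels of different genes were compared as CPM per kilobase of annotated exon (GENCODE M21). Cdk11b was highest, at 22.1 ± 1.42 in Ctrl and 20.8 ± 1.56 in Cdk7_KO (SD, n = 5). Hexim1 followed at 17.5 ± 1.67 and 17.8 ± 1.73, Larp7 at 17.5 ± 0.616 and 16.5 ± 1.81, and Ccnk at 17.0 ± 1.38 and 16.2 ± 2.00. Cdk9 was at 14.9 ± 0.708 and 15.8 ± 1.08. These 4 genes overlapped, since Hexim1 lay above Larp7 in 7 of 10 libraries, Larp7 above Ccnk in 6 and Ccnk above Cdk9 in 7. Both cyclins of P-TEFb were lower per kilobase than the kinase in 10 of 10 libraries. Ccnt1 was at 8.0 ± 1.24 and 8.47 ± 0.964, and Ccnt2 at 5.54 ± 1.25 and 5.37 ± 0.607, below Ccnt1 in 9 of 10 libraries. Lowest were Cdk13 at 4.46 ± 0.433 and 4.26 ± 0.254 and Cdk12 at 3.53 ± 0.553 and 3.48 ± 0.301. The highest mean over all libraries was 6.13 times the lowest, and the 9 genes lay between percentiles 45.1 and 84.6 of the genes tested by this measure.

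**Figure D1:**
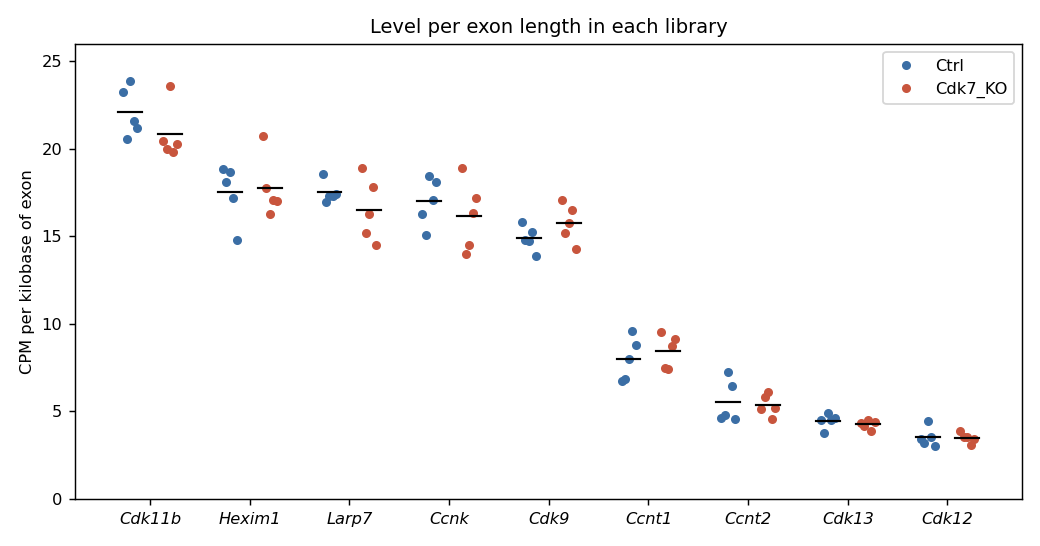
The vertical axis gives CPM per kilobase of annotated exon and the horizontal axis the 9 genes in order of their mean. Points are libraries (blue Ctrl, red Cdk7_KO) and lines are means of 5, and Cdk11b lies at the top and Cdk13 and Cdk12 at the bottom in both groups.

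The order depends in part on the length used. With the longest transcript in place of all annotated exons, Cdk9 was at 19.3 in Ctrl and 20.4 in Cdk7_KO and came second to Cdk11b (26.2 and 24.7), above Larp7 in 7 of 10 libraries. Cdk12 was then at 7.01 and 6.90 and lay above Cdk13 (4.78 and 4.56) in 10 of 10 libraries, the reverse of the order above. The annotated exons of Cdk12 add up to 11730 bases and its longest transcript to 5912. Which of these 2 kinases has more RNA thus cannot be read from gene counts. The genes lie on different chromosomes except Hexim1 (chromosome 11, 103116231 to 103119725, a single exon) and Cdk12 (chromosome 11, 98203059 to 98278504, GRCm38). Ccnt1 shares 695 exonic bases, 7.6% of its exon length, with the antisense gene 9330020H09Rik, which had 210 counts over all libraries beside 19786 of Ccnt1.

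Of the 9 genes 0 passed the adjusted threshold of 0.05 for a difference between Cdk7_KO and Ctrl, and 0 had an unadjusted p under 0.05 (edgeR). Over all 15578 genes tested, edgeR called 0%, and 15.4% had an unadjusted p under 0.05. DESeq2 called 3.55% of 16263 genes and also 0 of these 9. Among 189 values of the 9 genes under the alternatives, 5 had an unadjusted p under 0.05, with adjusted p-values between 0.237 and 0.387. They were Cdk9 without Ctrl replicate 1 and without Cdk7_KO replicate 5, Ccnt1 with the replicate block and with the set of numbers in the model, and Ccnt2 in the libraries numbered 1 to 3. The range of every gene overlapped between the groups, where 3.02% of all genes did not overlap. All 9 had a log2 fold change between -0.25 and 0.25, as had 70.2% of all genes, and 5 of the 9 were positive beside 52.5% of all. The values lay between -0.03 and 0.14, with a median of 0.01, which is also the median over all genes tested (0.013). The 95% intervals reached from 0.835-fold (the low end for Ccnt2) to 1.31-fold (the high end for Ccnt1). In bulk samples fewer cells of a type and less RNA per cell cannot be told apart, and values scaled to library totals do not show a change in total RNA per cell.

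**Figure D2:**
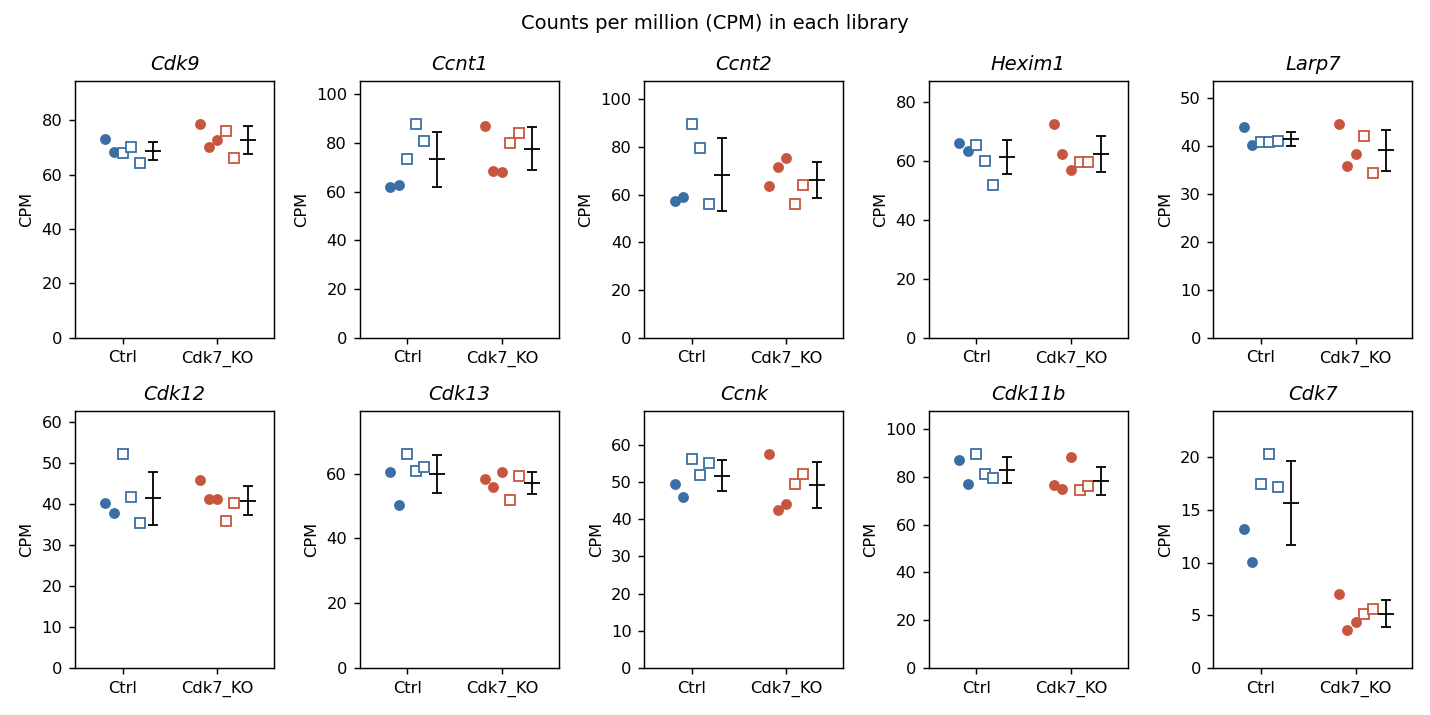
Each panel gives 1 gene, with CPM on the vertical axis from 0 and the groups on the horizontal axis. Filled circles are replicates 1 to 3, open squares replicates 4 to 6, and bars are the mean ± SD of 5 libraries. The groups overlap in each panel except that of Cdk7.

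Cdk9, the P-TEFb kinase, was at 73.0, 68.1, 68.0, 70.3 and 64.1 CPM in Ctrl replicates 1, 3, 4, 5 and 6. In Cdk7_KO replicates 1 to 5 it was at 78.7, 70.1, 72.7, 76.1 and 65.9 CPM. Replicates 1 and 4 of Cdk7_KO lay above all Ctrl libraries, and the other 3 lay within the Ctrl range. Cdk7_KO differed from Ctrl by 0.14 on the log2 scale (SE 0.07, 95% interval -0.01 to 0.28), with an edgeR adjusted p = 0.358, the smallest of the 9 genes. It was 0.08 in the libraries numbered 1 to 3 and 0.17 in those numbered 4 to 6. The adjusted p lay between 0.337 and 0.873 over 21 alternatives.

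The cyclins of P-TEFb varied most between libraries. Ccnt1 was at 61.8, 62.6, 73.2, 87.9 and 80.7 CPM in Ctrl replicates 1, 3, 4, 5 and 6, and at 87.2, 68.5, 68.1, 80.1 and 83.9 CPM in Cdk7_KO replicates 1 to 5. The difference was 0.14 on the log2 scale (SE 0.11, 95% interval -0.11 to 0.39, edgeR adjusted p = 0.607), with 0.28 in the libraries numbered 1 to 3 and 0.12 in those numbered 4 to 6. With the set of numbers in the model it was 0.20 (edgeR adjusted p = 0.237), and adjusted p-values lay between 0.237 and 0.877 over the alternatives. Ccnt2 was at 57.2, 59.1, 89.8, 79.7 and 56.1 CPM in Ctrl and at 63.8, 71.6, 75.5, 56.3 and 64.1 CPM in Cdk7_KO, in the same order. Ctrl replicates 4 and 5 were the highest of all 10 libraries. Its log2 fold change was 0.01 (SE 0.12, 95% interval -0.26 to 0.28, edgeR adjusted p = 0.983).

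Within the sets, Ccnt2 went in opposite directions. Its log2 fold change was 0.29 in the libraries numbered 1 to 3 (edgeR adjusted p = 0.387) and -0.22 in those numbered 4 to 6 (edgeR adjusted p = 0.485). The difference between the sets was -0.52 (SE 0.21, edgeR adjusted p = 0.665) and did not pass the correction, as 0 of 15578 genes did (1143 had an unadjusted p under 0.05). The within-group SD of log2 CPM was 0.221 for Ccnt2 and 0.204 for Ccnt1. Of 2134 and 2069 genes within 0.5 of their log2 level, 82.5% and 80.4% varied less. Counting error alone would give 0.0344 and 0.0324. Cdk7_KO replicate 1 had 7 of the 9 genes above the gene's own mean over the libraries, and Ctrl replicate 3 had 1.

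The RNAs of both proteins that hold P-TEFb on 7SK overlapped between the groups. Hexim1 was at 65.8, 63.3, 65.3, 60.0 and 51.6 CPM in Ctrl replicates 1, 3, 4, 5 and 6, and at 72.5, 62.2, 57.0, 59.7 and 59.6 CPM in Cdk7_KO replicates 1 to 5. The highest library was Cdk7_KO replicate 1 and the lowest Ctrl replicate 6. For Hexim1 the estimated difference was 0.08 on the log2 scale (SE 0.08, 95% interval -0.10 to 0.26, edgeR adjusted p = 0.709), with 0.00 in the libraries numbered 1 to 3 and 0.11 in those numbered 4 to 6. Larp7 was at 44.0, 40.2, 41.0, 40.9 and 41.2 CPM in Ctrl and at 44.7, 35.9, 38.5, 42.1 and 34.4 CPM in Cdk7_KO. The Ctrl libraries lay close together, and those of Cdk7_KO reached further both up and down. The log2 fold change of Larp7 was -0.03 (SE 0.09, 95% interval -0.22 to 0.16, edgeR adjusted p = 0.913), with -0.07 and 0.00 in the 2 sets.

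Cdk12 was at 40.2, 37.8, 52.2, 41.7 and 35.3 CPM in Ctrl replicates 1, 3, 4, 5 and 6, and at 45.8, 41.2, 41.2, 35.8 and 40.2 CPM in Cdk7_KO replicates 1 to 5. All Cdk7_KO libraries lay within the Ctrl range. The estimate for Cdk12 was 0.03 (SE 0.10, 95% interval -0.18 to 0.24, edgeR adjusted p = 0.912). Its relative Cdk13 was at 60.5, 50.3, 66.1, 60.8 and 62.1 CPM in Ctrl and at 58.5, 56.0, 60.6, 51.9 and 59.3 CPM in Cdk7_KO. Here too the Cdk7_KO libraries lay inside the Ctrl range, with Ctrl replicate 3 the lowest and Ctrl replicate 4 the highest of all. The log2 fold change of Cdk13 was -0.01 (SE 0.07, 95% interval -0.18 to 0.15, edgeR adjusted p = 0.952). In the libraries numbered 1 to 3 and 4 to 6 the changes were 0.15 and -0.08 for Cdk12, and 0.09 and -0.08 for Cdk13. The differences between the sets had edgeR adjusted p-values of 0.755 and 0.748.

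Ccnk, the cyclin of both kinases, was at 49.5, 45.9, 56.2, 52.0 and 55.1 CPM in Ctrl and at 57.6, 42.6, 44.2, 49.6 and 52.3 CPM in Cdk7_KO. Cdk7_KO held both the highest library (replicate 1) and the lowest (replicate 2). Its log2 fold change was -0.02 (SE 0.10, 95% interval -0.23 to 0.19, edgeR adjusted p = 0.957). Cdk11b was at 87.3, 77.1, 89.7, 81.1 and 79.6 CPM in Ctrl and at 76.7, 75.1, 88.6, 74.5 and 76.1 CPM in Cdk7_KO. By CPM, replicate 3 of Cdk7_KO stood apart from the other 4 of its group, which lay below every Ctrl library. With the TMM scaling of the edgeR fit, these 4 overlapped Ctrl. They lay between 6.243 and 6.305 in log2 CPM, with Ctrl replicates 3 and 5 at 6.244 and 6.294. The log2 fold change of Cdk11b was -0.03 (SE 0.06, 95% interval -0.17 to 0.10, edgeR adjusted p = 0.846). Its within-group SD of log2 CPM, 0.0835, was the lowest of the 9 genes, and 15.7% of genes at a similar level varied less. In the 2 sets the changes were 0.03 and 0.00 for Ccnk and -0.02 and -0.05 for Cdk11b.

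**Figure D3:**
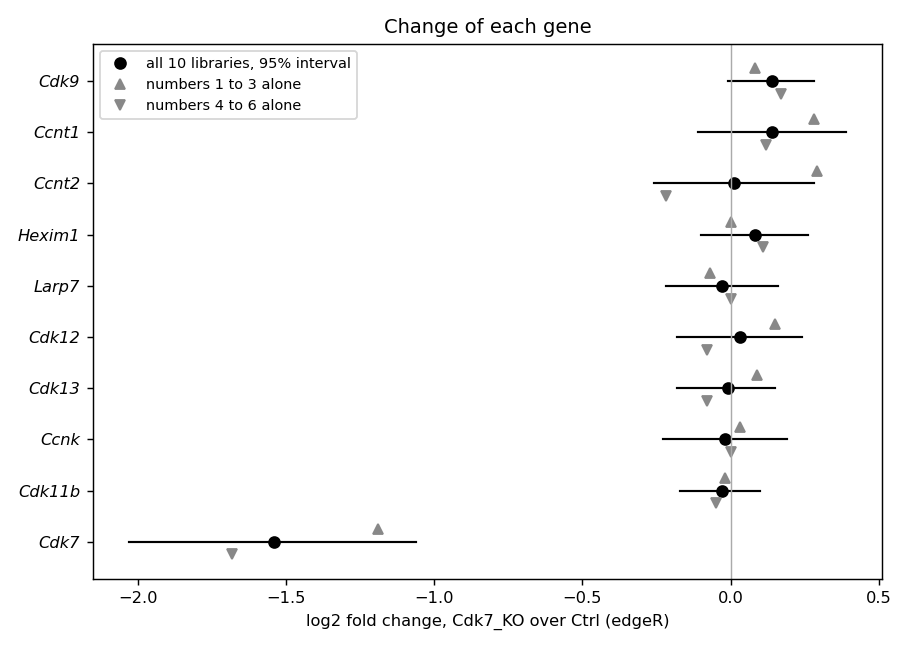
The horizontal axis gives the log2 fold change of Cdk7_KO over Ctrl from edgeR, with the 95% interval over all 10 libraries. Grey triangles are the estimates within the libraries numbered 1 to 3 (upward) and 4 to 6 (downward). All 9 intervals include 0, and that of Cdk7 (-2.03 to -1.06) does not.

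Ratios between genes of 1 complex do not depend on how libraries are scaled, and they were formed from the levels per exon length. Their size does depend on the length used. With the longest transcript, Cdk12 lay above Cdk13 in 10 of 10 libraries and Cdk9 above Larp7 in 7 of 10. The ratio of Hexim1 to Cdk9 was 1.17 ± 0.0813 in Ctrl and 1.13 ± 0.0885 in Cdk7_KO (SD, n = 5). That of Ccnt1 to Ccnt2 was 1.48 ± 0.299 and 1.61 ± 0.329, that of Cdk12 to Cdk13 0.794 ± 0.0980 and 0.818 ± 0.0523, and that of Ccnk to the sum of both kinases 2.14 ± 0.152 and 2.10 ± 0.260. Their groups overlapped. The ratio of Larp7 to Cdk9 was 1.17, 1.15, 1.17, 1.13 and 1.25 in Ctrl replicates 1, 3, 4, 5 and 6, and 1.11, 0.998, 1.03, 1.08 and 1.02 in Cdk7_KO replicates 1 to 5. Each Cdk7_KO library lay below each Ctrl library, although neither gene passed the test by itself. The means were 1.18 ± 0.0451 and 1.05 ± 0.0453. Of all 36 pairs among the 9 genes it was the only one without overlap, a share of 2.78%. The ratio to Cdk9 did not overlap for 4.99% of the other genes tested, and the ratio to Larp7 for 1.98%, so that a single such pair among 36 is near the background.

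The genes whose pattern over the 10 libraries was most like a kinase were found among 9398 genes of at least 10 CPM by Pearson's r of log2 CPM. For Cdk9 these were Nufip1 (0.934), Ddit4 (0.894) and Cbx3 (0.886). Those most like Cdk12 were Wdr75 (0.927), Prr14 (0.895) and Actr5 (0.887), and those most like Cdk13 were Nemf (0.945), Brpf1 (0.940) and Arfgef2 (0.908). The values describe likeness over these libraries, which share depth and scaling between genes. The median over all genes compared was 0.112, 0.012 and 0.026. The named genes are the highest of 9398 values over only 10 libraries, where high values also arise by chance. Whether theirs exceed that was not tested. The 3 lists have no gene in common.

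Of 37 other genes of the elongation pathway, edgeR called 0 and DESeq2 called 1, and 4 had an unadjusted p under 0.05 (Rtf1, Ctdsp1, Fanci and Brca1). Over all genes tested, edgeR called 0% and DESeq2 3.55%, and 15.4% had an unadjusted p under 0.05 (edgeR). With the set of numbers in the model, edgeR called 1 of the 37 and 732 of all 15578 genes. Among 7 further partners and regulators 5 were positive and 2 negative, with a median log2 fold change of 0.07, which was 0.04 without Cdk7_KO replicate 1 and 0.03 without Cdk7_KO replicate 4. Hexim2, a second inhibitor of P-TEFb, was at 17.5 ± 1.73 CPM (mean ± SD) over 5 Ctrl libraries and 19.9 ± 1.99 CPM over 5 of Cdk7_KO, which is 0.24 on the log2 scale (SE 0.11, edgeR adjusted p = 0.332). The phosphatase gene Ppm1g was at 0.09. Of the 6 genes for subunits of the pausing factors that P-TEFb acts on, 5 were positive, with a median of 0.09. Supt4a was at 0.16 (SE 0.08, edgeR adjusted p = 0.387), and Nelfcd and Nelfb of the NELF complex at 0.13 and 0.10.

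Of 12 genes for elongation factors 11 were positive, with a median of 0.09, where 52.5% of all genes were positive. Rtf1, which works with the PAF complex, was at 153 ± 5.81 CPM in Ctrl libraries and at 164 ± 11.3 CPM in those of Cdk7_KO, a difference of 0.16 on the log2 scale (SE 0.07, edgeR adjusted p = 0.320). Tcea1, whose protein helps arrested polymerase to resume, was at 0.13. Scaling by library totals instead of TMM factors moved the median over all genes from 0.013 to -0.040. The medians of the lists moved with it, to 0.02 for the partners and regulators, 0.04 for the pausing factors and 0.03 for the elongation factors. The markers of projection neurons were positive in the same comparison (10 of 10, median 0.27), and their part in the values of these 3 lists was not tested.

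Phosphatases of the C-terminal domain had a median of -0.08 (-0.13 without Ctrl replicate 3 and with library totals), with 1 of 7 positive. Ctdsp1, a small phosphatase of that domain that is known for silencing neuronal genes in non-neuronal cells, had 21.5 ± 3.63 CPM in Ctrl libraries and 9.71 ± 4.47 CPM in those of Cdk7_KO. The groups did not overlap, with the lowest Ctrl library at 18.1 CPM and the highest Cdk7_KO library at 16.8 CPM. Cdk7_KO was at -1.10 on the log2 scale (SE 0.26, edgeR adjusted p = 0.161). The adjusted p was 0.00399 with DESeq2 and 0.0228 in edgeR with the set of numbers in the model, in a range from 0.00399 to 0.374 over 21 alternatives. The change was -0.92 in the libraries numbered 1 to 3 and -1.51 in those numbered 4 to 6. Its paralog Ctdspl did not overlap either, with 8.53 ± 0.254 CPM in Ctrl libraries and 6.82 ± 0.652 CPM in those of Cdk7_KO, or -0.27 on the log2 scale (edgeR adjusted p = 0.347). Ctdsp2 was at -0.11. The 2 genes without overlap were 2 of the 37, beside 3.02% of all genes. Markers of radial glia and astrocytes were lower in the same libraries (median log2 fold change -1.09, 9 of 9 negative), and their part in the values of Ctdsp1 and Ctdspl was not tested.

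The last list holds genes that published work found to need CDK12, or CDK12 and CDK13, for their expression in other cells. Of the 5, 4 were negative, with a median of -0.32, which was -0.17 without Cdk7_KO replicate 4 and -0.49 without Cdk7_KO replicate 5. Fanci, of the Fanconi anaemia repair pathway, had 4.53 ± 1.32 CPM in Ctrl libraries and 2.09 ± 0.893 CPM in those of Cdk7_KO, or -1.06 on the log2 scale (SE 0.36, edgeR adjusted p = 0.198, DESeq2 0.0546). The repair gene Brca1 was at 7.20 ± 1.35 and 5.19 ± 0.931 CPM, or -0.42 on the log2 scale (SE 0.18, edgeR adjusted p = 0.306). Cdk5, a kinase of postmitotic neurons, was at 67.4 ± 5.03 and 71.0 ± 2.66 CPM (0.13 on the log2 scale, SE 0.06, edgeR adjusted p = 0.342). Fanci and Brca1 are also genes of dividing cells. The 5 proliferation markers (Mki67, Top2a, Ccnb1, Cdk1 and Pcna) were all negative, with a median of -1.09, and 4 had an unadjusted p under 0.05 (edgeR). They summed to between 144 and 208 CPM in Ctrl and between 84.7 and 144 CPM in Cdk7_KO. Pcna, the highest of the 5, lay between 67.0 and 88.6 CPM in Ctrl and, inside that range, between 68.3 and 78.3 CPM in Cdk7_KO. The part of the proliferation markers in the values of Fanci and Brca1 was not tested.

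**Figure D4:**
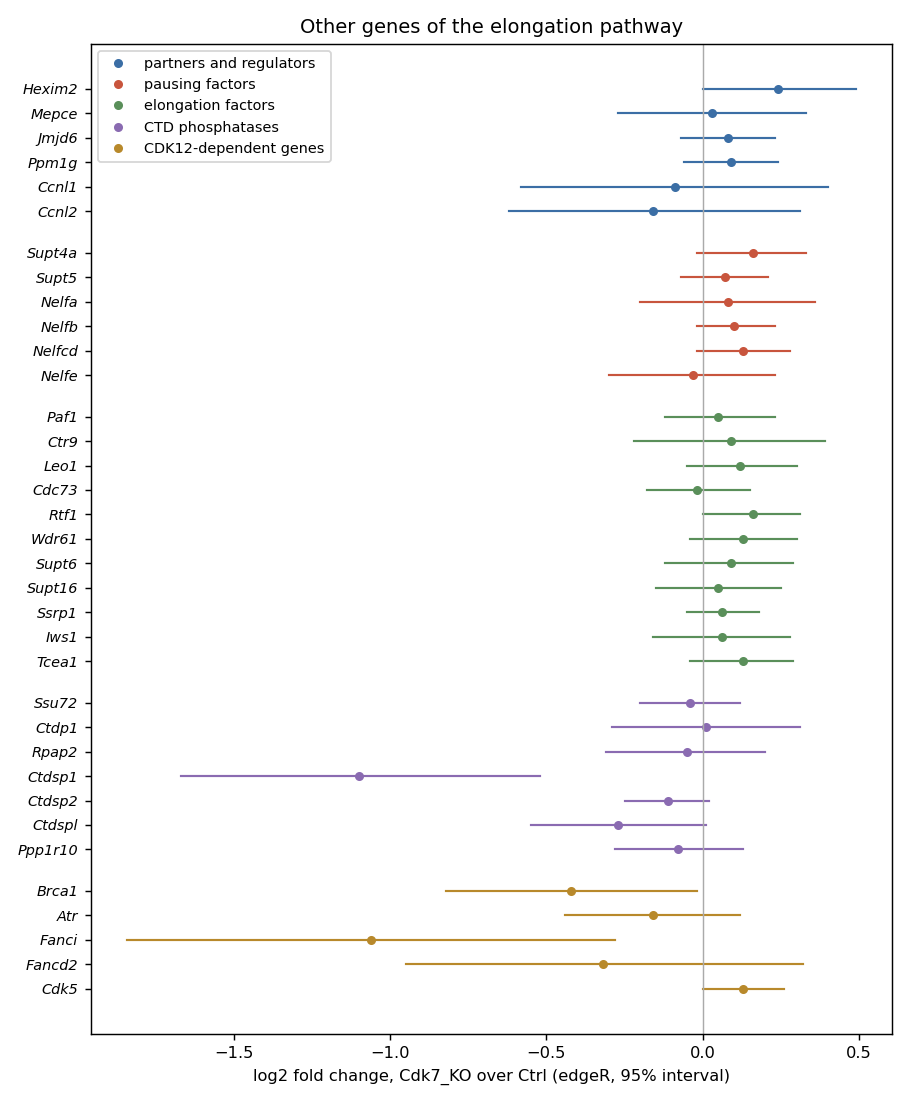
The horizontal axis gives the log2 fold change of Cdk7_KO over Ctrl from edgeR with its 95% interval, for 35 of the 37 genes in 5 lists by colour. Most lie near 0, and Ctdsp1 (-1.10) and Fanci (-1.06) lie furthest to the left.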

How the data were processed

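Whole-number gene counts, not normalized, were deposited by the authors for each library. STAR, Salmon and the build GRCm38 are named in the submitters' processing notes. Tool versions, the counting step and its strand setting: not given in the sources used here, so overlapping antisense reads may be counted together. Each column was matched to its sample by library name, and 0 columns were left over. Of the gene IDs, 55480 matched GENCODE M21 and 93 did not. No 2 libraries were copies (smallest chi-square per gene 11.2).

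The test was edgeR 4.0.16 (in R 4.3.3), with filterByExpr by group (minimum count 10), TMM factors, glmQLFit and glmQLFTest, no term but genotype, and p-values adjusted by Benjamini-Hochberg over 15578 genes (threshold 0.05). Standard errors come from the F statistic. CPM use library totals. Cdk7 was also compared as log2(CPM + 1). DESeq2 1.42.0 and limma 3.58.1 (voom) were alternatives, with RLE factors, library totals, other filters, 1 library left out at a time, a block of replicate number, and the set of numbers as a factor or each set alone. The interaction with the set, and the block's libraries without the block, were added after the data were seen. Reads are not independent molecules, so counting errors cover counting only.

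The members and lists were chosen with earlier results of these data known. Named genes were the members, Cdk7, the 3 genes with the smallest p of each pathway list, and the 3 most like Cdk9, Cdk12 and Cdk13 (TMM-scaled log2 CPM, prior count 2, no predicted genes). Some genes that this rule picks are not reported here.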

Additional observations from a re-analysis of the deposited data

Results flagged for a closer look

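Of 28 groups of 5 libraries examined (9 genes and 5 ratios in both groups), 2 held a library far from the other 4, beyond Dixon's 95% critical value, which by its definition about 1 in 20 groups passes by chance. Larp7 was at 44.0 CPM in Ctrl replicate 1, where the other 4 Ctrl libraries lay between 40.2 and 41.2 CPM. Cdk11b was at 88.6 CPM in Cdk7_KO replicate 3, where the other 4 Cdk7_KO libraries lay between 74.5 and 76.7 CPM.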

How the results depend on the processing

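Under 21 alternatives 0 of the 9 genes passed the adjusted threshold, and 155 of 189 values kept the direction of the main fit. The count over all genes, 0 in the main fit, was 578 with DESeq2, 1 without a filter, 5 with the replicate block, 732 with the set of numbers as a factor, and between 0 and 5 when 1 library was left out (5 without Cdk7_KO replicate 1). Of the pathway lists 1 gene, Ctdsp1, was called with DESeq2 and with the set of numbers. Changes of direction were within 0.09 of 0 on the log2 scale except for Ccnt2 in the libraries numbered 4 to 6. Ccnt2 was at -0.05 with library totals, -0.01 with the filter of 1 CPM and -0.22 in the libraries numbered 4 to 6, and between -0.04 and 0.12 when a library was left out. Cdk12 was at -0.02 with library totals, -0.08 in the libraries numbered 4 to 6, and between -0.01 and 0.12 without 1 library. Cdk13 was at 0.00 with the set as a factor, 0.09 in the libraries numbered 1 to 3 and between -0.07 and 0.02 without 1 library. Ccnk was at 0.02, 0.03 and between -0.08 and 0.04 in the same fits, and Larp7 was between -0.09 and 0.01 without 1 library. The cause was not tested.

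The replicate numbers 1, 3, 4 and 5 occur in both groups, but deviations of same-numbered libraries correlated at -0.10, 0.31, 0.14 and 0.17, and 3 of 4 Ctrl libraries were most like their own number. Since number 1 lay below 0 and the labels name no shared litter or day, the numbers were not taken as pairs. The other 3 numbers give at most a hint from the data that they may be. Same-numbered libraries are also of the same sex, and its part in this likeness was not tested. With the replicate block over these 8 libraries Ccnt2 was at -0.05, Larp7 at 0.00, Cdk12 at 0.00, Cdk13 at 0.03 and Ccnk at 0.06. Without it, in the same libraries, they were at -0.07, 0.01, -0.01, 0.02 and 0.07, and 0 genes were called over the whole table, against 5 with the block. Ccnt1 was at 0.24 with the block (edgeR adjusted p = 0.281).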

Other observations

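The cyclin gene Ccnl2, whose protein binds CDK11, was named after its values were seen. Its log2 fold change was 0.25 in the libraries numbered 1 to 3 and -0.65 in those numbered 4 to 6 (difference -0.91, SE 0.37, edgeR adjusted p = 0.665). Ccnl1 was at 0.05 and -0.47 in the same sets (difference -0.53, SE 0.39, edgeR adjusted p = 0.732). Neither difference passed the correction.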
